A study of Mus musculus with 12 samples.

Results

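The urea cycle and ammonia handling genes are the 10 genes Cps1, Otc, Ass1, Asl, Arg1, Nags, Gls2, Glul, Sds and Got1. They were taken by symbol from a table of nascent RNA signal for 21490 gene symbols, and all 10 were found and exceeded 6 reads per base pair (rpbp) in at least 1 library, as did 6284 symbols in all. Nascent-Seq sequences RNA that is still being made on chromatin. It was applied to livers of adult C57BL/6 mice of 3 to 6 months, which the study's methods give as male and wild type, kept on 12 hr of light and 12 hr of darkness for at least 2 weeks with no other treatment. Livers came from 6 time points (ZT0, ZT4, ZT8, ZT12, ZT16 and ZT20, in hours after lights on) with 2 replicates each, 12 libraries in all, and no time point was a control. The study's methods call the 2 series independent, but the labels do not say how many animals a library holds, so p-values describe the spread between these libraries. Each value is the signal over the exons of a gene per base of exon. Levels can thus be set side by side between genes as signal, but not as rates of transcription. Strand was not kept, and reads from overlapping genes cannot be told apart.

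The urea cycle turns ammonia, which is toxic to the brain, into urea that the kidney removes, and the complete cycle runs chiefly in the liver. Cps1 and Otc work in the mitochondria and Ass1, Asl and Arg1 in the cytosol, and Nags makes N-acetylglutamate, without which Cps1 is inactive. Periportal hepatocytes hold most of the cycle together with Gls2, which releases ammonia from glutamine, whereas the last hepatocytes before the central vein hold Glul, which binds leftover ammonia into glutamine. Sds breaks down serine to pyruvate and ammonia, and Got1 makes aspartate, which carries the other nitrogen of urea into the cycle through Ass1. These genes are known to respond to protein intake, fasting, glucagon and glucocorticoids.

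Promoter sequence from RefSeq (build GRCm38.p6, 250 bases before to 50 bases after the start) was at hand for 5 of the 10 genes, namely Otc, Ass1, Nags, Glul and Got1. The 250 bases before the start are shown for Otc, because it was one of the genes that differed between time points, and for Ass1, because it was the only one of the 5 to hold the E-box CACGTG, the motif bound by the clock proteins CLK and BMAL1. Capitals mark the matches to the motifs searched, on the + strand of the X chromosome (chrX:10252055-10252304) for Otc and on the + strand of chromosome 2 (chr2:31470020-31470269) for Ass1.
Otc: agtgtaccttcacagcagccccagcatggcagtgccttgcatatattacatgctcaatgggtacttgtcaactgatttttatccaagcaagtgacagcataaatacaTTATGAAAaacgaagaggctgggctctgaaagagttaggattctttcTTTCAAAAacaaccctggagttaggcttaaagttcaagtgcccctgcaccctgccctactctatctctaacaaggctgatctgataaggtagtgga
Ass1: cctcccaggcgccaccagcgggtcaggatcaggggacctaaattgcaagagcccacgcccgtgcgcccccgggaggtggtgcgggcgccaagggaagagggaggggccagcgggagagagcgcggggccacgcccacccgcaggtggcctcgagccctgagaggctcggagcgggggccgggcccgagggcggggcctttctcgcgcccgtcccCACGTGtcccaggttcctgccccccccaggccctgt
The capitals in the Otc sequence are 2 matches to TTNNGNAA, a loose form of the motif bound by C/EBP proteins, with N for any base. The first begins 143 bases before the start on the strand shown, and the second, 96 bases before the start, is read on the other strand. The capitals in the Ass1 sequence are the E-box, which begins 36 bases before the start. On both strands over the 300 bases, CACGTG was present in 7.15% and TTNNGNAA in 40.7% of the 32851 promoters in the RefSeq table. Nags held 1 match to TTNNGNAA and 1 match to TGACG, the core of the cAMP response element, which 20.8% of the promoters held. No match was found in the 5 promoters to the stricter C/EBP motif TTGCGNAA, the full cAMP response element TGACGTCA, the forkhead motif TGTTTAC, the D-box TTANGTAA, the TATA box TATAAA, the HNF4 motif CAAAGTCCA or the glucocorticoid receptor motif AGAACA. These were held by 0.798%, 1.79%, 3.65%, 2.32%, 13.6%, 0.475% and 19.0% of all promoters. Every TTGCGNAA is also a TTNNGNAA, and every TGACGTCA holds a TGACG.

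Cps1 had by far the highest nascent signal of the 10 genes per base of exon, and Nags had the lowest mean. The mean signal was 247 ± 86.9 rpbp (SD, n = 12) for Cps1, and the Cps1 value exceeded that of Ass1, the next in order, in 12 of 12 libraries. Behind it came Ass1 (69.6 ± 55.8), Arg1 (67.7 ± 31.6), Asl (52.9 ± 46.3), Sds (39.5 ± 31.3) and Gls2 (28.7 ± 11.2), and the lowest means were those of Glul (19.2 ± 5.53), Otc (18.5 ± 7.80), Got1 (17.3 ± 16.2) and Nags (12.2 ± 2.92). No other neighbours in this order kept their order in every library: the higher-ranked gene of a pair was above the next in 5 to 9 of the 12. Otc and Cps1, which work one after the other in the mitochondria, thus differed widely in nascent signal. As a share of the mean, the SD over the 12 libraries was largest for Got1 (93.3%), Asl (87.7%), Ass1 (80.2%) and Sds (79.4%) and smallest for Nags (23.9%) and Glul (28.7%). Its median over the 10 genes was 44.5%, against 25.2% over all tested symbols.

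**Figure D1:**
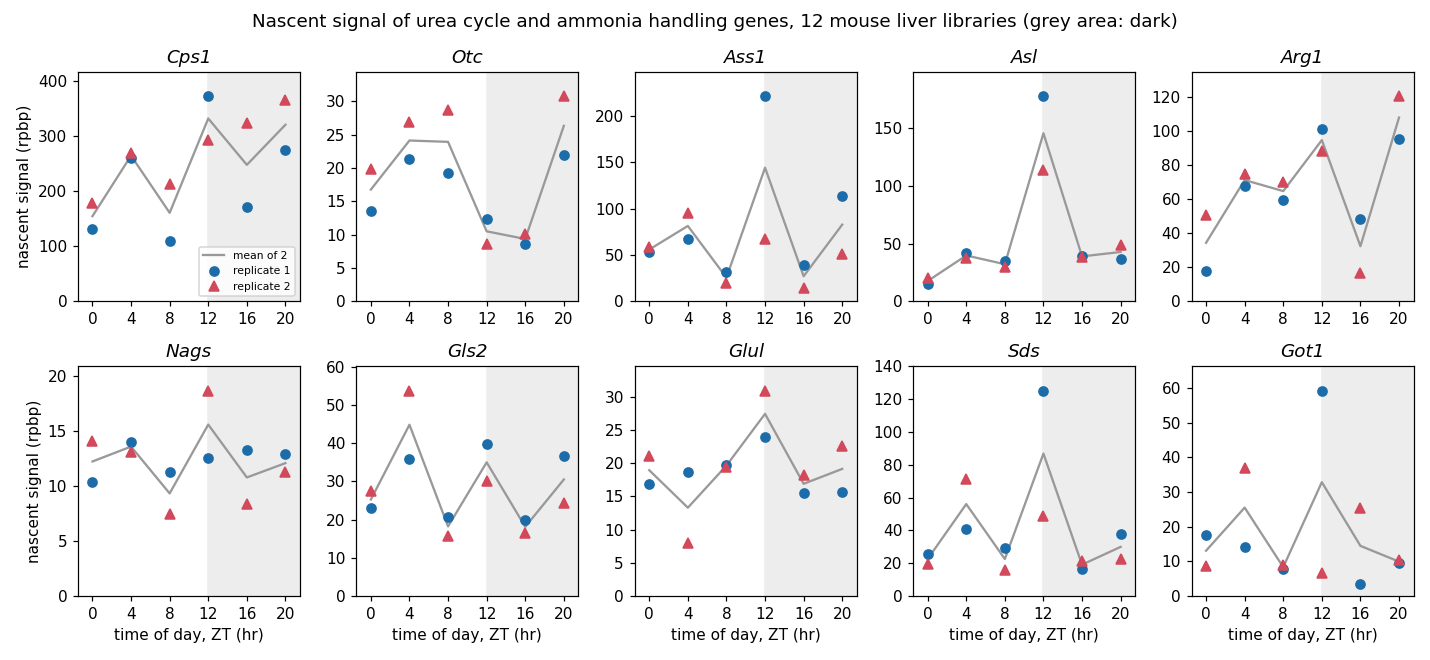
Nascent signal (rpbp, linear axis from 0) of each gene against the time of day (ZT, hr), with 1 circle for replicate 1, 1 triangle for replicate 2 and a grey line through their mean; the dark hours are shaded. Asl stood at 113.8 and 177.6 rpbp at ZT12 and at no more than 48.7 rpbp elsewhere, Otc was lowest at ZT12 and ZT16, and the 2 replicates of Got1 lay far apart at ZT12 and ZT16.

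The study asked which genes have a daily rhythm of transcription. For each gene the share of the variance of the 12 values that follows a 24-hr cosine (F24) was therefore computed. None of the 10 genes met the study's criteria for rhythmic transcription (F24 above 0.45, a ratio of highest to lowest value above 1.5, and a permutation p below 0.05 without adjustment), whereas 15.2% of tested symbols did. Asl came closest, with F24 of 0.424, a peak at 12.3 hr and a one-sided permutation p of 0.0146 (adjusted p = 0.189, 100000 permutations). It was the only one of the 10 genes with an unadjusted permutation p under 0.05, against 16.4% of tested symbols, and its highest value was 11.7 times its lowest. Asl met the criteria when F24 was computed on log2(rpbp + 1) (F24 = 0.525, permutation p = 0.0194). For Otc F24 was 0.333 with a peak at 2.39 hr and a permutation p of 0.168 (adjusted p = 0.488), and for the other 8 genes F24 lay between 0.00236 for Nags and 0.235 for Glul.

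A change between the 6 time points need not follow a cosine, so limma's moderated F-test was run on log2(rpbp + 1), with adjustment over all 6284 symbols. Of the 10 genes, 2 passed at an adjusted p under 0.05, Asl (adjusted p = 0.00339) and Otc (adjusted p = 0.0356), against 7.65% of tested symbols. At an unadjusted p under 0.05 the test picked 7 of the 10, all but Nags, Glul and Got1, against 27.6% of tested symbols. Each time point was also compared with the mean of the other 5 by limma, again adjusted over all symbols. Of all tested symbols, 0.286% were higher and 0.334% lower at ZT0, 0.0318% and 0.0796% at ZT4, 3.25% and 3.33% at ZT8, 3.07% and 1.29% at ZT12, 1.03% and 1.72% at ZT16, and 0.0637% and 0.0637% at ZT20. Among the 10 genes these contrasts called Asl and Sds higher at ZT12 and Asl lower at ZT0. At ZT4, ZT8, ZT16 and ZT20 limma called 0 of the 10, with 4, 5, 5 and 2 of them at an unadjusted p under 0.05, against 10.7%, 25.6%, 22.2% and 11.1% of tested symbols.

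**Figure D2:**
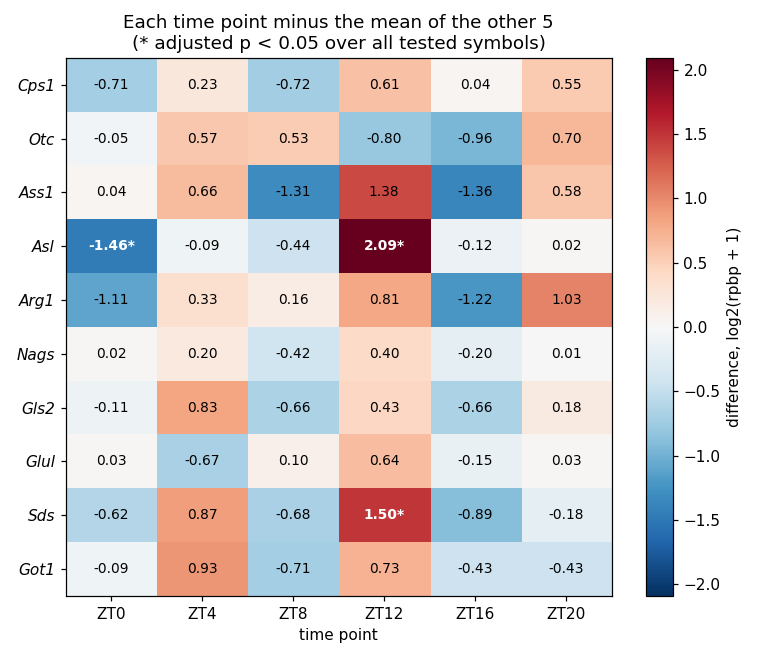
Difference on the log2(rpbp + 1) scale between each time point (columns) and the mean of the other 5, for each of the 10 genes (rows); red is higher, blue is lower, and an asterisk marks an adjusted p under 0.05 over all tested symbols. The marked cells are Asl at ZT12 (2.09) and ZT0 (-1.46) and Sds at ZT12 (1.5).

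Asl, which splits argininosuccinate into arginine and fumarate, changed most clearly of the 10. It lies at chr5:130487373-130500201 on the - strand (mm9, 18 merged exons). Its signal in replicates 1 and 2 was 15.2 and 20.1 rpbp at ZT0, 42.1 and 37.5 at ZT4, 34.6 and 29.9 at ZT8, 177.6 and 113.8 at ZT12, 39.4 and 38.6 at ZT16, and 37.0 and 48.7 at ZT20. Both ZT12 libraries stood above the other 10, and both ZT0 libraries stood below the other 10. A pattern of the first kind was seen in 7.67% of tested symbols and one of the second kind in 1.34%. This and the other patterns of libraries without overlap were picked after the values of the genes were seen. The mean at ZT12 was 146 ± 45.1 rpbp (SD, n = 2) against 34.3 rpbp over the other 10 libraries, a difference of 2.09 ± 0.20 on the log2(rpbp + 1) scale (SE, 4.25-fold, adjusted p = 0.00225 by limma). At ZT0 the mean was 17.6 ± 3.46 rpbp (SD, n = 2) and the log2 difference -1.46 ± 0.20 (SE, 0.364-fold, adjusted p = 0.0192 by limma). The ZT12 call held in every alternative and with any 1 library left out (log2 difference 1.77 to 2.41). The ZT0 call was lost without ZT0 replicate 1 (adjusted p = 0.459), without ZT0 replicate 2 (adjusted p = 0.101) and with no signal threshold (adjusted p = 0.0571). From ZT4 through ZT8 and from ZT16 to ZT20 the values lay between 29.9 and 48.7 rpbp, so that the ZT12 value was bounded on both sides by lower ones. A transcript of 68 bases, AK212710 (chr5:130500053-130500120), lies wholly within Asl, and its own signal was likewise highest at ZT12 (a mean of 324 rpbp) and lowest at ZT0 (49.8 rpbp). The merged exons of Asl cover 4563 bases, against the 68 bases of AK212710. The signals of AK212710 (37.7 to 399 rpbp) and Asl correlated over the 12 libraries (Pearson r = 0.970). Since strand was not kept, reads of the 2 features cannot be told apart where they overlap. The part of AK212710 in the Asl signal was not tested.

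Otc, which joins ornithine and carbamoyl phosphate to citrulline, followed another course, with its lowest signal early in the dark. It lies at chrX:9829485-9898150 on the + strand. The signal in replicates 1 and 2 was 13.6 and 19.9 rpbp at ZT0, 21.4 and 26.8 at ZT4, 19.2 and 28.6 at ZT8, 12.4 and 8.6 at ZT12, 8.6 and 10.1 at ZT16, and 21.9 and 30.7 at ZT20. The 4 libraries of ZT12 and ZT16 all stood below the other 8, as for 4.44% of tested symbols. No pair of Otc replicates differed by over 1.5-fold. The mean was 10.5 ± 2.69 rpbp at ZT12 and 9.35 ± 1.06 at ZT16 against 26.3 ± 6.22 at ZT20 (SD, n = 2 each). No single time point of Otc passed the contrast test: the log2 difference was -0.80 ± 0.22 (SE) at ZT12 (adjusted p = 0.0702 by limma) and -0.96 ± 0.22 at ZT16 (adjusted p = 0.0522). With the replicate number as a block the ZT16 difference passed (adjusted p = 0.0442).

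Otc had the lowest exon G+C content of the 10 genes (38.9%), and tested symbols of like G+C content moved in the same directions. In the twentieth of symbols with the lowest G+C content, which holds Otc, the median log2 difference was 0.45 at ZT8, -0.28 at ZT12 and -0.40 at ZT16, against 0.53, -0.80 and -0.96 for Otc itself. With this trend removed, the Otc differences were 0.11, -0.55 and -0.58, and the F-test gave an adjusted p of 0.0637. The F-test call was also lost with libraries rescaled to equal medians (adjusted p = 0.0623) and with 11 of the 12 libraries left out in turn, the exception being ZT8 replicate 1.

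Sds, the serine dehydratase of hepatocytes, was called higher at ZT12, but its 2 libraries of that time point were far apart. It lies at chr5:120926556-120933914 on the + strand. The signal in replicates 1 and 2 was 25.4 and 19.6 rpbp at ZT0, 41.0 and 71.0 at ZT4, 29.3 and 15.7 at ZT8, 125.0 and 48.6 at ZT12, 16.7 and 21.4 at ZT16, and 37.5 and 22.3 at ZT20. ZT12 replicate 2 lay below ZT4 replicate 2, so the time points overlapped. The log2 difference of ZT12 from the mean of the others was 1.5 ± 0.36 (SE, 2.82-fold, adjusted p = 0.0458 by limma), and without ZT12 replicate 1 it was 0.83 (adjusted p = 0.373). The call was lost in 15 of 20 alternatives, always with a positive difference. In the deposited table Sds overlaps 1300012G16Rik at its end, whose mean was also highest at ZT12 (15.7 rpbp).

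Ass1, which joins citrulline and aspartate and is the step before Asl, had a high library at ZT12 without passing a test. Its signal in replicates 1 and 2 was 53.1 and 58.9 rpbp at ZT0, 67.1 and 95.9 at ZT4, 31.5 and 19.9 at ZT8, 221.3 and 67.4 at ZT12, 39.6 and 14.8 at ZT16, and 114.3 and 51.5 at ZT20. The ZT12 replicates differed 3.28-fold, and replicate 2 lay within the range of the other time points. All 4 libraries of ZT8 and ZT16 were below the other 8, as for 0.414% of tested symbols. The log2 difference was 1.38 ± 0.46 (SE) at ZT12 (adjusted p = 0.113 by limma), -1.31 ± 0.46 at ZT8 (adjusted p = 0.113) and -1.36 ± 0.46 at ZT16 (adjusted p = 0.135).

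Cps1, the entry enzyme of the cycle, had its highest means at ZT12 and ZT20 and its lowest at ZT0 and ZT8. The signal in replicates 1 and 2 was 131.6 and 177.8 rpbp at ZT0, 259.9 and 269.1 at ZT4, 109.3 and 212.3 at ZT8, 372.0 and 292.1 at ZT12, 171.9 and 323.8 at ZT16, and 275.3 and 366.0 at ZT20. The replicates of ZT8 and of ZT16 differed 1.94-fold and 1.88-fold, against 2.15-fold between the highest and the lowest time-point mean. The F-test gave an adjusted p of 0.159 (limma), and the lowest adjusted p of a single time point was 0.149, at ZT8.

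Arg1, which releases urea and ornithine, was highest at ZT20 and lowest at ZT16 and ZT0 by its means. Replicates 1 and 2 gave 18.0 and 50.9 rpbp at ZT0, 67.7 and 75.0 at ZT4, 59.4 and 70.3 at ZT8, 101.4 and 88.3 at ZT12, 48.3 and 16.6 at ZT16, and 95.7 and 120.5 at ZT20. All 4 libraries of ZT12 and ZT20 were above the other 8, as for 0.382% of tested symbols, and both lowest values came from time points whose replicates differed by over 2.8-fold. The adjusted p of the F-test was 0.0903 (limma) and became 0.0250 without ZT16 replicate 1. The log2 difference at ZT16 was -1.22 ± 0.39 (SE, adjusted p = 0.120 by limma).

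Nags, the enzyme that makes the activator of Cps1, ran from 7.4 rpbp in ZT8 replicate 2 to 18.6 rpbp in ZT12 replicate 2. Its SD was 23.9% of its mean, the smallest share of the 10, beside a median of 25.2% over all tested symbols. Its time-point means ran from 9.30 ± 2.69 rpbp at ZT8 to 15.6 ± 4.31 at ZT12 (SD, n = 2 each), and the adjusted p of the F-test was 0.457 (limma). Of the 10 genes, Nags had the highest exon G+C content (59.4%). Its log2 difference of 0.40 at ZT12 was close to the median of 0.30 for symbols of like G+C content.

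Gls2 and Glul, the enzymes that take glutamine apart and put it together at opposite ends of the liver lobule, showed no shared course. Gls2 was 22.9 and 27.6 rpbp at ZT0, 36.0 and 53.7 at ZT4, 20.7 and 15.7 at ZT8, 39.9 and 30.1 at ZT12, 19.8 and 16.4 at ZT16, and 36.7 and 24.3 at ZT20. Glul was 16.8 and 21.1 rpbp at ZT0, 18.7 and 7.9 at ZT4, 19.8 and 19.5 at ZT8, 24.0 and 30.9 at ZT12, 15.5 and 18.3 at ZT16, and 15.7 and 22.6 at ZT20. As for Ass1, the 4 libraries of ZT8 and ZT16 held the lowest Gls2 values, a pattern seen in 0.414% of tested symbols. Gls2 was highest on average at ZT4 (log2 difference 0.83 ± 0.22, SE, adjusted p = 0.214 by limma), the time point at which Glul was lowest on average (-0.67 ± 0.26, adjusted p = 0.402). The Glul replicates at ZT4 differed 2.37-fold, and only replicate 2 lay below the other time points. Both ZT12 libraries of Glul stood above its other 10, as for 7.67% of tested symbols. The margin was small and there was no call (0.64 ± 0.26, adjusted p = 0.184 by limma). The F-test gave an adjusted p of 0.0641 for Gls2 and 0.302 for Glul (limma). In the deposited table Gls2 overlaps Spryd4 by a few bases at its end, and Glul overlaps AK044033 at its start.

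Got1, the cytosolic aspartate aminotransferase, could not be placed in time because its replicates went apart. Its values were 17.6 and 8.5 rpbp at ZT0, 14.0 and 37.0 at ZT4, 7.7 and 8.9 at ZT8, 59.2 and 6.5 at ZT12, 3.5 and 25.4 at ZT16, and 9.5 and 10.3 at ZT20. The ZT12 replicates differed 9.11-fold and the ZT16 replicates 7.26-fold, and the higher one was replicate 1 at ZT12 and replicate 2 at ZT16. The adjusted p of the F-test was 0.731 (limma). Over the 10 genes and 6 time points, 21 of 60 replicate pairs (35.0%) differed by over 1.5-fold, against 20.6% of pairs over all tested symbols, and 12 of the 21 belonged to Ass1, Sds and Got1.

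Set side by side, 9 of the 10 genes had a positive difference at ZT12, Otc being the exception, and 9 of the 10 a negative one at ZT16, Cps1 being the exception. The median over the 10 genes was 0.69 at ZT12 and -0.55 at ZT16, against 0.06 and -0.17 over all tested symbols, of which 56.7% were positive at ZT12 and 29.1% at ZT16. The median was also -0.55 at ZT8 (-0.01 over all tested symbols) and 0.45 at ZT4 (0.07). Of these single differences, only those of Asl and Sds at ZT12 were called after adjustment. At an unadjusted p under 0.05, limma's contrasts picked 5 of the 10 at ZT12 and 5 at ZT16. Of tested symbols they picked 22.2% at ZT12 and 22.2% at ZT16. Per library, the median deviation of the 10 genes from their own means ran from -0.52 in ZT16 replicate 2 to 0.73 in ZT12 replicate 1 on the log2 scale. The same median over all tested symbols ran only from -0.20 to 0.13, and over the 732 symbols with a mean of at least 20 rpbp from -0.25 to 0.20.

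**Figure D3:**
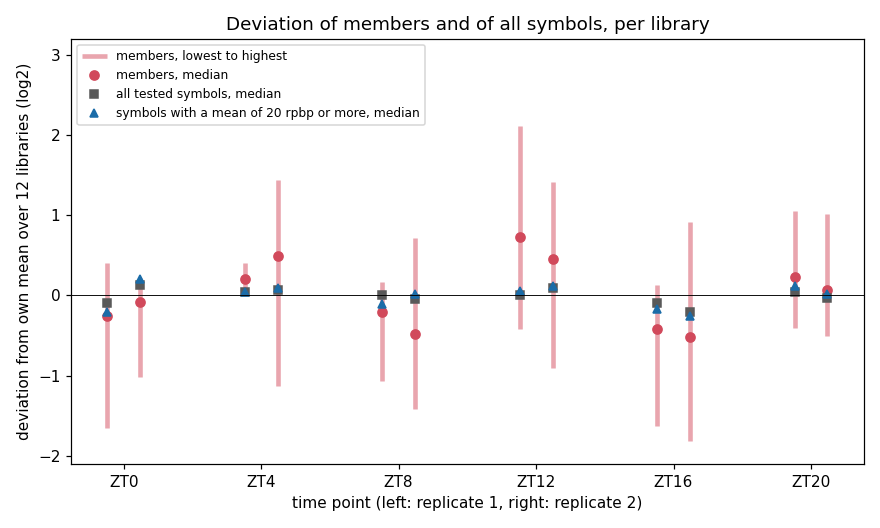
Deviation from the mean over the 12 libraries, log2(rpbp + 1), for each library (left replicate 1, right replicate 2 of a time point): red bars span the 10 genes and red circles are their median, grey squares the median over all tested symbols and blue triangles that over symbols with a mean of 20 rpbp or more. The red circles lie highest in ZT12 replicate 1 (0.73) and lowest in ZT16 replicate 2 (-0.52), while grey squares stay between -0.20 and 0.13.

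The libraries differed in how the signal depended on G+C content, and the ZT12 differences were read beside that trend. The deviation of symbols in the highest G+C bin minus that in the lowest was -1.21 on the log2 scale in ZT8 replicate 2, 0.51 and 0.40 in the ZT12 libraries and 0.58 in ZT16 replicate 1. At ZT12 the median difference in the bin of symbols with like G+C content was 0.16 for Asl, 0.21 for Sds and 0.22 for Ass1, well below their own 2.09, 1.5 and 1.38. With the trend removed the ZT12 difference of Asl was 1.92 ± 0.19 (SE, adjusted p = 0.00314 by limma) and that of Sds 1.26 ± 0.37 (adjusted p = 0.0857). Among the time points run in 1 lane (ZT0, ZT4, ZT12 and ZT16), the ZT12 difference of Asl was 2.20 ± 0.21 (adjusted p = 0.00595) and that of Sds 1.42 ± 0.36 (adjusted p = 0.0912). The libraries of ZT8 and ZT20 were each run in 2 lanes, so lanes and these time points cannot be told apart.

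**Figure D4:**
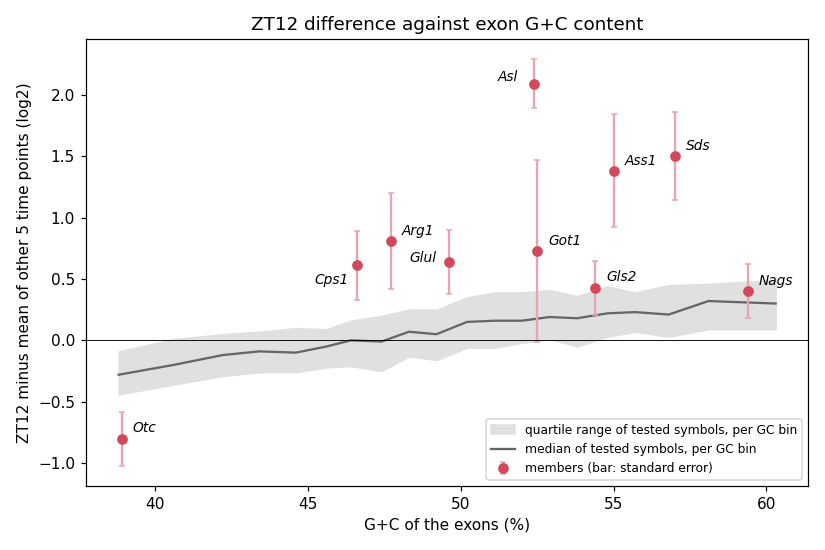
Difference of ZT12 from the mean of the other 5 time points (log2) against the G+C content of the exons (%), with 1 red point per gene and its standard error; the grey line is the median and the grey band the range between the quartiles of all tested symbols in each of 20 G+C bins. Asl (2.09), Sds (1.5) and Ass1 (1.38) lie far above the band, Nags (0.40) lies within it and Otc (-0.80) lies below it.

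The tissue label was checked against cell markers. The summed signal of 8 hepatocyte markers was 572 to 1830.2 rpbp per library, against 12.6 to 25.7 rpbp for 5 endothelial, 17.8 to 41.9 for 5 Kupffer cell, 8.10 to 12.9 for 5 stellate cell and 0.800 to 2.20 for the 3 cholangiocyte markers in the table. Krt19 and Krt7 of bile duct cells, Cd3e of T cells, Lyve1 of endothelium and Des and Col1a1 of stellate cells averaged below 1 rpbp. At ZT12 the Kupffer cell markers summed to 40.2 and 41.9 rpbp, the highest pair, against 17.8 to 38.1 rpbp in the other libraries. Of the 3 tested, Clec4f, a lectin of Kupffer cells, passed the F-test (adjusted p = 0.0360 by limma), a call lost in 12 of 20 alternatives. Clec4f was called lower at ZT8 (adjusted p = 0.0124 by limma), and this held in all 19 alternatives that could give it. At ZT12 it was not called, with a log2 difference of 1.04 (adjusted p = 0.0852 by limma). Csf1r and Emr1 differed by 0.33 and -0.05 at ZT12 (adjusted p = 0.451 and 0.953 by limma). The part of these markers in the ZT12 differences was not tested. The summed signal of periportal hepatocyte markers was, like that of Asl, highest at ZT12 and lowest at ZT0, and the single markers did not move alike. Without Sds and Gls2, which are themselves among the 10, the 6 other periportal markers summed to 741 and 754 rpbp at ZT12. At ZT0 they summed to 144 and 183 rpbp. These were the highest and lowest pairs of the day, with 230.0 to 706 rpbp at the other time points. The sum was 230.0 and 230.3 rpbp at ZT8 and 398 and 706 rpbp at ZT20. Asl differed less between them, with 34.6 and 29.9 rpbp at ZT8 and 37.0 and 48.7 rpbp at ZT20. On average most of that sum was Pck1, the gluconeogenic enzyme PEPCK, which was called higher at ZT12 (log2 difference 1.79, adjusted p = 0.0222 by limma) and lower at ZT0 (-2.22, adjusted p = 0.0263). The ZT12 call of Pck1 was lost without either ZT12 library, with no threshold and with the G+C trend removed, and the ZT0 call in 6 of 20 alternatives, among them those without either ZT0 library. The other 3 tested periportal markers were not called at ZT12, with differences of 0.32 for Cyp2f2, -0.42 for Hal and -0.21 for Hsd17b13 (adjusted p = 0.196, 0.226 and 0.635). The 9 perivenous markers other than Glul summed to 199 and 262 rpbp at ZT12 and ranged from 76.3 to 386 rpbp over all libraries. The part of cell composition in the Asl result was not tested, and in bulk liver fewer cells of a type and less RNA per cell cannot be told apart.

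Over the 12 libraries, the closest course to that of another member was shared by Ass1 and Gls2 (Pearson r = 0.859, Spearman rho = 0.951), followed by Gls2 and Sds (r = 0.814) and Ass1 and Sds (r = 0.789). These are descriptions over 12 libraries that share depth and base composition, with the median of all symbols removed from each library. Among the 10 pairs of the cycle enzymes proper, r ran from -0.397 for Otc and Asl to 0.638 for Cps1 and Asl, with a median of 0.351 and 8 of 10 above 0. Over all 45 pairs the median was 0.324 and the lowest value -0.539, for Otc and Nags. The tested symbols outside all gene lists whose course was most like the mean of Cps1, Otc, Ass1, Asl and Arg1 were Agxt2l1 (r = 0.886 over 12 libraries), Ctsh (0.844), Them4 (0.837), Cdo1 (0.814) and Mug1 (0.814). Ctsh encodes the protease cathepsin H, Cdo1 the cysteine dioxygenase that begins cysteine breakdown and Mug1 a secreted protease inhibitor of the liver. Of the 20 symbols with the highest r, 5 were on the wider lists described next, among them Tat and Klf15. Those lists hold 64 of the 6284 tested symbols. Only 1 of the 10 genes, Arg1, was among the 20, although Cps1, Otc, Ass1 and Asl are also part of that mean.

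The wider surroundings of the cycle were followed with 3 lists of 80 symbols in all, of which 64 were tested. Of these 64, 11 passed the F-test (17.2%, against 7.65% of tested symbols) and 12 were rhythmic (18.8%, against 15.2%). The count of 11 changed with single libraries. It was 4 without ZT8 replicate 2 or without ZT20 replicate 1 (6.25%, against 4.20% and 3.60% of tested symbols). It was 5 without ZT8 replicate 1 or ZT20 replicate 2 (7.81%, against 8.04% and 3.52%). Without ZT8 replicate 1 the share was thus no higher than over all tested symbols. The count was 6 without ZT0 replicate 1 or ZT4 replicate 2 (9.38%, against 2.71% and 4.39%). It was 7 without ZT12 replicate 1 (10.9%, against 3.53%) and 8 to 13 without any other library. It was 3 among the time points run in 1 lane (4.69%, against 1.91%) and 2 with no threshold (2.63%, against 0.641%). Among 14 tested genes of nitrogen supply and transport, 2 passed the F-test. Slc38a3, a glutamine transporter of the hepatocyte membrane, ran from 88.0 ± 9.19 rpbp at ZT16 to 247 ± 15.8 at ZT4 (SD, n = 2 each, adjusted p = 0.0172 by limma's F-test) and was rhythmic with a peak at 5.22 hr. Its F-test call was lost in 1 of 20 alternatives, with no threshold. Slc3a1, part of a cystine and basic amino acid transporter, was lowest at ZT8 (3.45 ± 1.34 rpbp) and highest at ZT16 (17.1 ± 6.51, adjusted p = 0.0400 by limma's F-test), a call lost in 11 of 20 alternatives, among them those without either library of ZT0, ZT8, ZT12 or ZT20 and that with the replicate block. Slc25a15, the carrier that exchanges ornithine and citrulline for the cycle, was called lower at ZT8 (log2 difference -0.97, adjusted p = 0.0420 by limma), a call lost in 10 of 19 alternatives, among them those without either ZT0, ZT8 or ZT20 library or without ZT4 replicate 2. Gpt2, the mitochondrial alanine aminotransferase, was called higher at ZT12 (1.18, adjusted p = 0.0388 by limma), the time point of the Asl call. Unlike that of Asl, the Gpt2 call was lost in 7 of 20 alternatives, namely with no threshold and without either ZT12 library, ZT0 replicate 1, ZT4 replicate 2, ZT8 replicate 2 or ZT20 replicate 2. Slc25a15 and Gpt2 were chosen after their values were seen.

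Among 34 tested genes of amino acid breakdown, 7 passed the F-test, against 7.65% of tested symbols. In 5 of the 7 the lowest mean was at ZT8, but the share of all F-test symbols lowest at ZT8 was not computed. The count of 7 fell to 1 without ZT8 replicate 2, without ZT20 replicate 1 or with no threshold, to 2 without ZT8 replicate 1, ZT4 replicate 2 or ZT20 replicate 2, to 3 without ZT0 replicate 1, to 4 without ZT12 replicate 1 and to 0 among the time points run in 1 lane, and it was 5 to 8 without any other library. Cbs, which starts the conversion of homocysteine to cysteine, was 11.5 ± 2.55 rpbp at ZT8 against 73.4 ± 29.7 at ZT4, its highest mean (log2 difference of ZT8 -2.30 ± 0.24, SE, adjusted p = 0.00290 by limma). Gldc, of the glycine cleavage system, and Agxt, which transaminates glyoxylate, were likewise lower at ZT8 (-2.06 and -2.02, adjusted p = 0.00821 and 0.0270 by limma). The ZT8 call of Cbs held in all 19 alternatives that could give it, that of Gldc was lost without ZT8 replicate 2, and that of Agxt without either ZT8 library, without ZT0 replicate 2 and with no threshold. Hal, the first enzyme of histidine breakdown, Cth, which splits cystathionine, Bhmt, which remethylates homocysteine, and Tat, the tyrosine aminotransferase, passed the F-test (adjusted p = 0.0291, 0.0427, 0.0210 and 0.0482) with no call at a single time point, and these F-test calls were lost in 11, 15, 5 and 17 of 20 alternatives. Bhmt was lowest at ZT4 (8.65 ± 0.212 rpbp) and highest at ZT20 (85.1 ± 1.7). Of the 34 genes, 4 were called lower at ZT8, against 3.33% of tested symbols. At ZT12 1 was called higher, against 3.07% of tested symbols. It was Hpd, which follows Tat in tyrosine breakdown (1.15, adjusted p = 0.0299 by limma). The Hpd call was lost without either ZT12 library, without ZT20 replicate 2, among the time points run in 1 lane and with no threshold. ZT8 replicate 2 is the library with the steepest G+C trend, and without it 1 gene of the list, Cbs, was called lower at ZT8. With the G+C trend removed, 5 were called lower at ZT8 and none higher at ZT12.

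Among 16 tested regulators, limma called 3 higher at ZT12, against 3.07% of tested symbols, and none at any other time point. Cebpb, a C/EBP factor induced by glucagon and cAMP, was 33.6 ± 11.7 rpbp at ZT12 against a lowest mean of 5.50 at ZT20 (log2 difference at ZT12 1.74 ± 0.25, SE, adjusted p = 0.00697). Foxo1, a factor that insulin holds out of the nucleus, was 17.6 ± 1.06 rpbp at ZT12 against 6.10 ± 0.566 at ZT0 (1.09 ± 0.15, adjusted p = 0.00534) and was rhythmic with a peak at 12.7 hr. Klf15, a factor known for its control of amino acid breakdown, differed by 0.93 ± 0.22 (adjusted p = 0.0445). Without ZT12 replicate 1 none of the 3 was called (adjusted p = 0.111 for Cebpb by limma), and without ZT12 replicate 2 only Cebpb was. The calls of Cebpb and Foxo1 held in all other alternatives, and that of Klf15 was lost in 13 of 20, among them those with the G+C trend removed and with only the time points run in 1 lane. Over the 3 lists the median ZT12 difference was 0.49 for nitrogen supply and transport, 0.32 for amino acid breakdown and 0.08 for the regulators, beside 0.69 for the 10 genes.

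**Figure D5:**
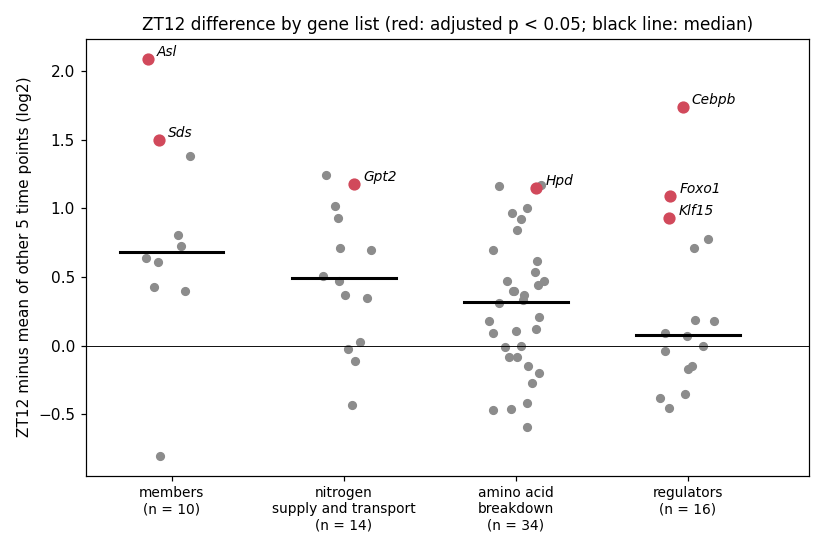
Difference of ZT12 from the mean of the other 5 time points (log2) for the 10 urea cycle and ammonia handling genes and the tested genes of 3 wider lists, with 1 point per gene, red where the adjusted p is under 0.05 and a black line at the median of each list. The red points are Asl, Sds, Gpt2, Hpd, Cebpb, Foxo1 and Klf15, all above 0.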

How the data were processed

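Nascent RNA from mouse liver was sequenced on a Genome Analyzer II in 12 libraries (6 time points with 2 replicates each), grouped by the time point and replicate number in the sample labels. The authors aligned reads to mm9 with TopHat (CASAVA 1.7 is also named in the submitters' processing notes), kept uniquely mapped reads, summed the coverage of all exons of a gene symbol and divided it by exon length. The deposited signal is this value in rpbp after scaling of all libraries to an equal number of reads. Depth is thus not visible in the deposited signal, which is no count of reads, and no count model was fitted. The sum of rpbp per library was 118342 to 160545. The authors' F24, phase and p-value columns were not used.

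The 27919 blank lines were dropped, and the tests ran on the 6284 symbols that exceeded 6 rpbp in 1 library or more. F24 was computed on linear values with 100000 permutations. limma 3.58.1 (R 4.3.3) was fitted to log2(rpbp + 1) over all 12 libraries, and p-values were adjusted over all tested symbols (Benjamini-Hochberg, within each contrast) at a threshold of 0.05. Contrasts were two-sided. A fold change on this scale understates that of low genes. The scripts were tested on simulated data. Coordinates are mm9, counted from 1; strand, exons and G+C content came from GENCODE M1 (NCBIM37, the same build), with G+C known for 5420 tested symbols (86.3%), 1114 of them matched by position.

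The members, the wider lists, the marker lists and the tests were chosen with earlier results of these data known. The summed lymphocyte markers are not reported here. The text names all 10 members, up to 10 genes of the wider lists that passed the F-test (smallest p first; Tat, which ranks after these, is named as the remaining one), and the 5 symbols outside all lists that correlated best with the mean z-score of the 5 cycle enzymes. Hpd, Klf15, Pck1, Cyp2f2, Slc25a15 and Gpt2 were named after their values were seen. Alternatives were signal thresholds of 3 and 12 rpbp and none, libraries rescaled, the G+C trend removed in 20 bins, log2 values with 1 or 0.1 added, a replicate block, only the time points run in 1 lane, and each library left out.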

Additional observations from a re-analysis of the deposited data

How the results depend on the processing

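The ZT12 difference and the F-test call of Asl kept their direction and their side of the threshold in all 20 alternatives. Of the 10 genes, the number called rhythmic was 1 rather than 0 on log2(rpbp + 1) and on log2(rpbp + 0.1), Asl each time, and 0 to 1 with 1 library left out (Asl without either ZT8 library or either ZT16 library). The number passing the F-test was 1 rather than 2 with no threshold, with libraries rescaled, with the G+C trend removed and with only the time points run in 1 lane, and 1 to 2 with 1 library left out. Otc was lost each time (adjusted p of 0.0505 to 0.0755 in the 11 fits that lost it by leaving out a library), and without ZT16 replicate 1 Arg1 passed in its place. The number called at ZT12 was 1 rather than 2 with a threshold of 3 rpbp, with none, with libraries rescaled, with the G+C trend removed, on log2(rpbp + 0.1) and among the time points run in 1 lane, since Sds was lost, and 1 to 3 with 1 library left out. At ZT0 it was 0 rather than 1 with no threshold, and 0 to 1 with 1 library left out. At ZT16 it was 1 rather than 0 with a threshold of 12 rpbp and with the replicate block, Otc both times, and 0 to 1 with 1 library left out (Otc without ZT8 replicate 1, Arg1 without ZT16 replicate 1). At ZT4, ZT8 and ZT20 no alternative gave a call. With no threshold more symbols share the adjustment; the cause of the other changes was not tested.

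The labels do not say whether same-numbered replicates share more than their number. The difference between replicates correlated between time points over all tested symbols by -0.117 to 0.320 (15 pairs, 5 above 0.1). Of the 10 genes, the replicate block gave 0 rhythmic, 2 passing the F-test, 2 called at ZT12, 1 at ZT0 and, unlike the fit without it, 1 at ZT16 (Otc). On the wider lists it gave 8 genes passing the F-test rather than 11: Tat, Agxt, Cth and Slc3a1 were lost and Tdo2 gained. Each time point has only 2 replicates, which limits every mean, and a difference that missed the threshold is not shown to be absent.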

Other observations

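Of the 64 tested genes on the wider lists, 12 met the criteria for rhythmic transcription (18.8%, against 15.2% of tested symbols). Among the 12, only Slc38a3, Cbs and Foxo1 also passed limma's F-test. The unadjusted permutation p was close to the limit of 0.05 for Foxa2 (0.0477), Cbs (0.0465) and Slc38a4 (0.0444). The peaks were spread over the light hours for the transport genes: Slc38a3 at 5.22 hr (F24 = 0.918), Oat at 3.12 hr (0.687), Aqp9 at 6.33 hr (0.529) and Slc38a4 at 7.42 hr (0.507). Oat encodes ornithine aminotransferase, which removes ornithine from the cycle, and Aqp9 a channel of the hepatocyte membrane that passes urea and glycerol. Among regulators, Insr, the insulin receptor, peaked at 6.47 hr (F24 = 0.638), Cebpa at 6.19 hr (0.567), Sirt3, a mitochondrial deacetylase, at 5.26 hr (0.598) and Foxa2 at 2.12 hr (0.518). Of the amino acid breakdown genes, Agxt2 peaked at 3.03 hr (0.522), Kynu at 23.6 hr (0.536) and Cbs at 22.3 hr (0.494). All of these but Slc38a3, Cbs and Foxo1 were chosen after their values were seen, and the lists were not tested against other genes.

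The table also holds a symbol spelled arg1, which differs from Arg1 only in case and lies on chromosome 4 rather than chromosome 10. Its signal was 0.5 to 1.90 rpbp, and it was not taken as a member.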
